A study of Mus musculus with 8 samples.

Results

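The mouse mitochondrial genome contributed 37 of the 54532 genes in the count table: every gene listed on chromosome MT, namely 13 protein genes, 2 ribosomal RNA (rRNA) genes and 22 transfer RNA (tRNA) genes. RNA sequencing had been done on mouse retina, the light-sensing nervous tissue of the eye, in 8 libraries. In 4 of them the label was sIVs, which the title of the series lets be read as small intracellular vesicles, membrane-bound carriers taken from inside cells. The other 4 were controls labelled PBS, for the saline buffer, and the replicates of each group were numbered 1, 3, 4 and 5. Strain, age, genotype, dose, route, time and injury were not given in the labels for either group. That title concerns vesicle uptake, drug delivery and protection of retinal neurons, and the comparison set vesicle retinas against control retinas. The libraries were described as biosamples and not as separate animals, so each p-value measures the spread between these samples alone, and part of it may be technical.

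The mitochondrial genome is a small circle inside the organelle that keeps genes for core subunits of the respiratory chain and for the RNAs of its own ribosome and translation. Both strands are transcribed into long precursors, and the tRNAs that lie between the other genes are cut out, which frees the mRNAs and rRNAs. A mitochondrial poly(A) polymerase then adds a tail, and for some mRNAs this tail also completes the stop codon. Photoreceptors pack mitochondria into the inner segment, next to the light-sensing outer segment. The libraries were made by poly(A) selection with a protocol that marks strand, and fragments were size selected, which bears on rRNAs and on tRNAs, the latter being shorter than 1 read of 150 bases.

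All 37 genes had the same coordinates as in GENCODE release 21 for mouse (M21, build mm10), which supplied the sequences. In the annotation 28 of them lay on the plus strand and 9 on the minus strand, the minus genes being mt-Nd6 and 8 tRNAs. Of the 36 pairs of neighbours between the first base and base 15422, 9 overlapped, 12 abutted with no gap and 14 were 1 to 5 bases apart, and the largest gap was 32 bases, between mt-Tn and mt-Tc. The rest of the circle holds no listed gene and was not analysed here. The ends of 4 mRNAs follow, because they show what the annotation leaves to the poly(A) tail. Capitals mark the stop codon or the part of it that the genome encodes: mt-Nd1 (MT, 2751 to 3707) ends in a whole stop codon, whereas mt-Co3 (8607 to 9390), mt-Nd4 (10167 to 11544) and mt-Cytb (14145 to 15288) end in a lone T. All 4 are on the plus strand, and the last 30 bases are printed.
mt-Nd1: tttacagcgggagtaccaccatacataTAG
mt-Co3: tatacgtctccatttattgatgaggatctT
mt-Nd4: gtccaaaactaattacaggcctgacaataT
mt-Cytb: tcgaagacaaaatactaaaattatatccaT

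Genes of opposite strands meet at mt-Nd5 (11742 to 13565, plus) and mt-Nd6 (13552 to 14070, minus), both complex I subunits. Their 3′ ends share 14 base pairs, shown in capitals in the last 30 bases of each gene, so a read from the overlap can be given to 1 of the genes only if counting used strand. Whether it did is not given in the sources used here. If it did not, RNA of either strand would count for a gene along its whole length. Counts by annotated strand would then not separate the strands.
mt-Nd5: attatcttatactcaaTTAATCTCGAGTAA
mt-Nd6: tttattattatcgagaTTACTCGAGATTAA

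mt-Nd6 also differed from the other protein genes in base composition. Its sense strand held 28.1% G and 5.97% C, against 5.88% to 16.1% G and 22.1% to 29.97% C in the 12 protein genes of the plus strand. The other overlapping mRNAs lie on the same strand: mt-Atp8 and mt-Atp6 shared 43 bases, mt-Nd4l and mt-Nd4 shared 7 and mt-Atp6 and mt-Co3 shared 1.

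Transcripts of the mitochondrial protein genes made up nearly all of the mitochondrial counts. Summed over the 8 libraries, protein genes took 93.4% of the mitochondrial counts, the 2 rRNAs 6.41% and the 22 tRNAs 0.188%, and the 9 minus-strand genes took 3.59%. As a share of all counts of a library, protein genes stood at 2.37% ± 0.167 (SD, n = 4) in PBS and 2.52% ± 0.326 in sIVs retinas. The rRNAs stood at 0.158% ± 0.0175 and 0.177% ± 0.0528, and the tRNAs at 0.00501% ± 0.0000699 and 0.00484% ± 0.000746 (SD, n = 4 each). The sIVs minus PBS difference was 0.148 percentage points for protein genes and 0.0188 for rRNAs, and 0.0166 and -0.000092 without sIVs replicate 4. Depth was 13803958 to 16622259 counts per library, so the 95% Wilson interval of the whole mitochondrial share was at most 0.00872 percentage points to either side, which covers counting error only. In a bulk sample, more cells of a type, more mitochondrial genomes in a cell and more RNA from each genome cannot be told apart.

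Among the protein genes, levels per length ran from 5409 for mt-Co1 to 3.82 for mt-Atp8, and genes of the same respiratory complex stood far apart. Levels here are the deposited FPKM, counts divided by gene length and library total, as the median of the 8 libraries. The highest was mt-Co1, the catalytic subunit of cytochrome oxidase (complex IV), with 5274 to 5738 in PBS and 5234 to 6146 in sIVs retinas. It was followed by mt-Cytb, the only mitochondrial subunit of complex III, at 3905 and by mt-Nd1, a complex I subunit, at 3454, an order seen in all 8 libraries although the ranges overlapped. The range of mt-Nd1 did not overlap with that of the next gene by median, mt-Nd2 at 1614. mt-Nd2 was followed by mt-Nd6 at 1508, mt-Nd4 at 1314 and mt-Nd5 at 1300.2, also of complex I. The ranges of these overlapped from each to the next, and mt-Nd4 exceeded mt-Nd5 in only 5 of 8 libraries. mt-Nd6 reached 3101 in sIVs replicate 4, above the lowest value of mt-Nd1, 2971 in PBS replicate 1. The rRNAs mt-Rnr2, of the large ribosomal subunit, at 766 and mt-Rnr1, of the small subunit, at 295 followed, without overlap between them. Since the mitochondrial ribosome holds 1 of each and these libraries select poly(A) tails, the values describe the captured RNA.

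The remaining 6 protein genes had far lower medians. They were mt-Atp6 and mt-Co2 at median FPKM of 107 and 98.4, in that order in only 4 of 8 libraries, mt-Co3 at 50.8, mt-Nd4l at 21.5, mt-Nd3 at 11.8 and mt-Atp8 at 3.82. The range of mt-Atp6 did not overlap with that of mt-Rnr1. mt-Co2 reached 243.8 in sIVs replicate 4, above the lowest value of mt-Rnr1, 241.3 in sIVs replicate 1. mt-Atp6 and mt-Atp8 encode subunits of ATP synthase (complex V), mt-Co2 and mt-Co3 the core subunits of complex IV beside mt-Co1, and mt-Nd3 and mt-Nd4l subunits of complex I. All 6 lie next to each other between mt-Co1 and mt-Nd4. Hence mt-Co1 and mt-Co2, subunits of the same complex read from the same strand and parted only by short tRNA genes, differed from 5409 to 98.4.

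**Figure D1:**
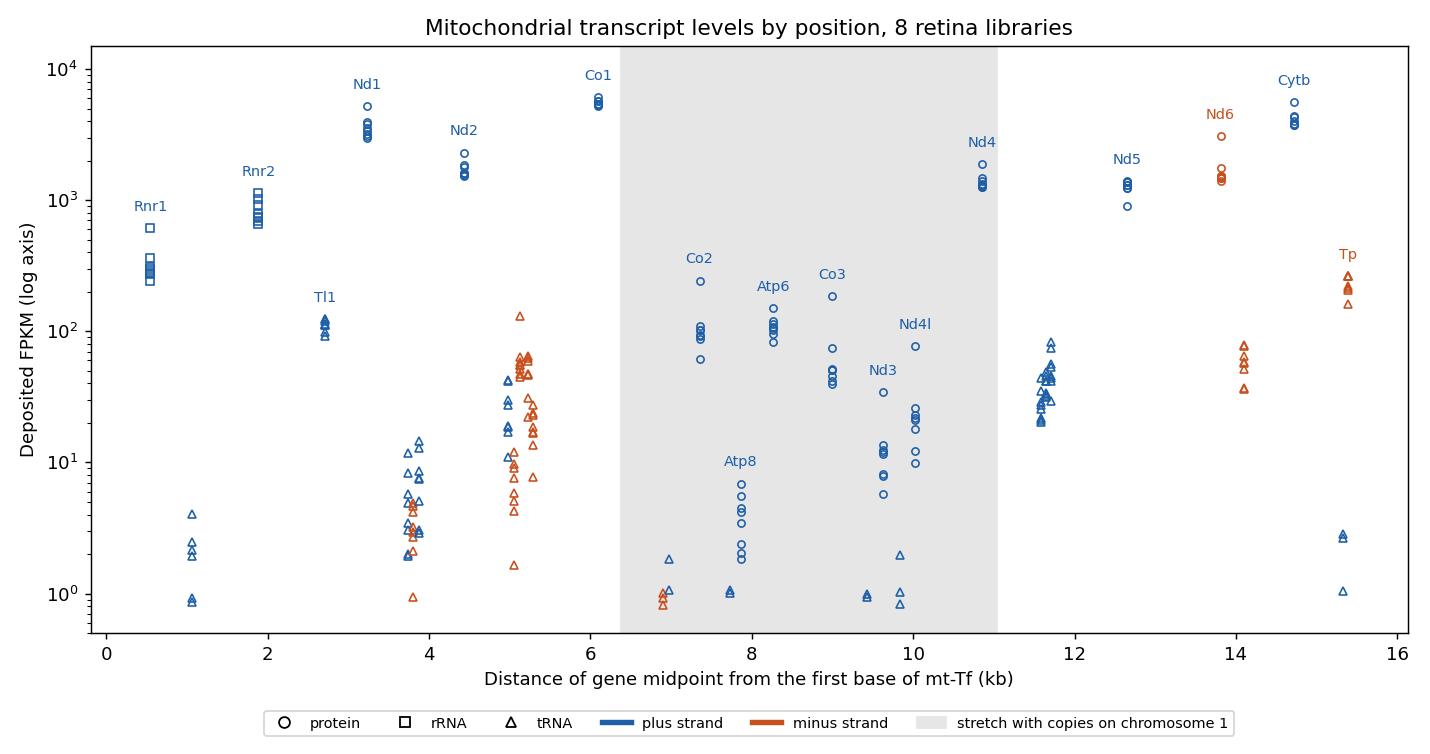
Deposited FPKM (log axis) of the mitochondrial genes against the distance of the gene's midpoint from the first base of mt-Tf, with 1 point per library and listed gene; circles are protein genes, squares rRNAs, triangles tRNAs, and libraries with 0 are not drawn. The 6 protein genes wholly inside the grey stretch have medians of 3.82 to 107 FPKM, and the 5 wholly outside it have medians of 1300.2 to 3905.

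These 6 genes are the ones inside a stretch spanned by annotated copies in the nuclear genome, called the copied stretch here. Sequence between those copies was not compared. Mammalian nuclear genomes contain copies of mitochondrial DNA, and 7 annotated pseudogenes on the minus strand of chromosome 1 (24611535 to 24616197, mm10; 4663 bases) match mitochondrial genes in the order of the circle, over MT bases 6381 to 11042 (4662 bases). Gm28661 matched the first 681 of 684 bases of mt-Co2 with 0 mismatches, Gm10925 the first 678 of 681 bases of mt-Atp6 with 0, Gm28437 the first 783 of 784 bases of mt-Co3 with 0, and Gm10222 the first 294 of 297 bases of mt-Nd4l with 0. Gm28439 matched the first 876 of 1378 bases of mt-Nd4 with 0 mismatches. The first bases of mt-Co2 (MT, 7013 to 7072) are printed once, because Gm28661 has the same letters and reads from here fit both places.
mt-Co2: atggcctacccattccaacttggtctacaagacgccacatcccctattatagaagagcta

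In the other pairs there were a few mismatches. Gm28438 matched 345 of 348 bases of mt-Nd3 with 1 mismatch, T3C, and Gm29216 matched only the last 492 of 1545 bases of mt-Co1, with 6 mismatches (98.8% identity): T1056A, C1057T, A1059G, A1060G, C1062A and A1066T. Positions count from 1 at the 5′ end of the mitochondrial gene, with its base first and that of the copy last. The 30-base stretches that hold these mismatches follow, with the differing bases in capitals (mt-Co1, MT 6381 to 6410, with Gm29216, chromosome 1 minus strand, 24616168 to 24616197; and mt-Nd3, MT 9459 to 9488, with Gm28438, 24613090 to 24613119). All the mismatches of mt-Co1 fall at the edge of the copied stretch.
mt-Co1: ggTCtAAcCggaAttgttttatccaactca
Gm29216: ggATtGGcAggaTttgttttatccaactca
mt-Nd3: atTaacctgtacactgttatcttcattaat
Gm28438: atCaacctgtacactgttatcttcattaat

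To measure how much of each gene a single read could place, every run of 150 bases, the read length, was looked up in all other GENCODE M21 transcripts. Another transcript held 532 of 535 such runs of mt-Co2, 529 of 532 of mt-Atp6, 634 of 635 of mt-Co3, 193 of 199 of mt-Nd3 and 145 of 148 of mt-Nd4l. The share was 23.6% for mt-Co1 and 59.2% for mt-Nd4, and 0 runs were shared for mt-Nd1, mt-Nd2, mt-Nd5, mt-Nd6, mt-Cytb, mt-Rnr1, mt-Rnr2 and mt-Atp8. mt-Atp8 lies inside the copied stretch, but of the annotated pseudogenes only Gm10925 reaches it, over the 43 bases that mt-Atp8 shares with mt-Atp6, which is shorter than a run. The sequence of chromosome 1 between the pseudogenes was not used here. How reads that fit several places were counted is not given in the sources used here.

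Genes wholly inside the stretch took 0.909% of the mitochondrial protein counts, the 2 genes partly inside, mt-Co1 and mt-Nd4, took 43.7%, and the 5 genes outside took 55.4%. The pseudogenes themselves drew counts, and those of Gm28661, Gm10925 and Gm28437 were of the size of the mitochondrial genes they match. The count of the copy divided by that of the mitochondrial gene had a median over the libraries of 0.816 for mt-Co2, 0.769 for mt-Atp6, 1.02 for mt-Co3, 1.64 for mt-Nd4l and 8.51 for mt-Nd3. For the 2 genes with a stretch of their own it was 0.00294 (mt-Co1) and 0.0103 (mt-Nd4). Where counts are divided by the number of runs found nowhere else, a measure chosen after the data were seen, mt-Co1 stood at 8177 CPM per 1000 runs, mt-Cytb at 4891, mt-Nd1 at 4392, mt-Nd4 at 3916, mt-Nd6 at 2447, mt-Nd2 at 2060, mt-Nd5 at 1408, mt-Rnr2 at 940 and mt-Rnr1 at 402. On that scale mt-Nd4 stood above mt-Nd6 and mt-Nd2, and mt-Nd6 above mt-Nd2, which reverses their FPKM order. A gene holds fewer runs than bases, so the measure also raises short genes. Levels of the 5 inner genes with an annotated copy are uncertain in these tables, since reads could be split between each gene and its copy.

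**Figure D2:**
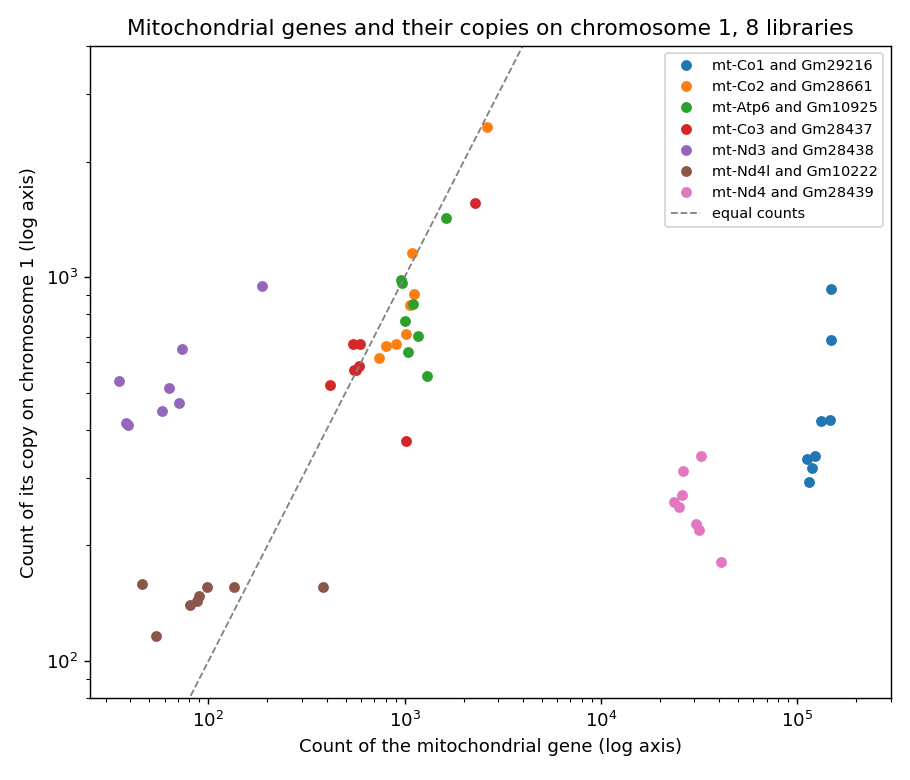
Count of each chromosome 1 copy (log axis) against the count of the mitochondrial gene it matches (log axis), 1 point per library for 7 pairs, with the dashed line at equal counts. Pairs of mt-Co2, mt-Atp6 and mt-Co3 lie around the line, mt-Nd3 lies above it, and mt-Co1 and mt-Nd4 lie far below it.

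The tRNA genes followed the same division by position, though less sharply. Of the 22, 10 reached a mean of 1 CPM (counts scaled to a normalized library of 1000000 counts) over the 8 libraries, and the same 10 passed the filter on low counts, which the other 12 did not. The 5 tRNAs inside the copied stretch, mt-Ts1 and, named after their values were seen, mt-Td, mt-Tk, mt-Tg and mt-Tr, had 2 to 4 counts each over all 8 libraries, 14 together. The 17 outside had a median of 213 and ran from 0 to 1906 counts. Some were low too, such as mt-Tt with 7 and mt-Tv with 13, both named after their values were seen. Of the 17, 16 exceeded every inner one. The exception was mt-Tf (MT, 1 to 68, plus), the tRNA for phenylalanine at the start of the map, with 0 of 119950461 counts, which allows up to 0.025 CPM by the limit of 3 counts and covers counting error only. In 1 library the limit was 0.18 to 0.217 CPM.

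The 8 minus-strand tRNAs held 3569 counts, 60.2% of all tRNA counts, and the 14 of the plus strand 2360. The highest were mt-Tp (15356 to 15422, minus), which reads proline codons and is the last gene of the map, with 1906 counts or 32.1% of all tRNA counts, and mt-Tl1 (2676 to 2750, plus), a leucine tRNA between mt-Rnr2 and mt-Nd1, with 1028 or 17.3%. Their whole genes are printed with mt-Tf, the gene without a count, on the sense strand and with the anticodon in capitals. The 3 genes are of like length, 67, 75 and 68 bases.
mt-Tp: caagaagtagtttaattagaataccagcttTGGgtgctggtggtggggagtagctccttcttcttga
mt-Tl1: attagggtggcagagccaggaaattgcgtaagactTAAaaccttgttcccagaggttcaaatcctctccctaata
mt-Tf: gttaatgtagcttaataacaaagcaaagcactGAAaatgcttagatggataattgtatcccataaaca

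The other 8 tRNAs above 1 CPM had total counts of 553 (mt-Tn), 480 (mt-Te), 469 (mt-Tl2), 388 (mt-Tc), 279 (mt-Ts2), 230 (mt-Th), 213 (mt-Tw) and 154 (mt-Ty). A tRNA is shorter than the selected fragments, so these counts may come from longer RNAs that contain or flank it. That was not tested.

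One library stood apart before any comparison of groups. The FPKM of sIVs replicate 4 summed to 329833, against 242057 to 259160 in the other 7, and the mean listed length per count of nuclear protein-coding genes was 5460 bases against 6354 to 6908. Transcripts that mark the pigment epithelium, a pigmented sheet of cells behind the photoreceptors, summed to 418 CPM there (6 of 6 in the table) and to 8.77 to 46.0 CPM elsewhere. Of the 6 markers only Rpe65, Rgr, Ttr, Lrat and Rdh5 were highest there, each at over 3 times the next library. Erythrocyte markers (5 of 5) summed to 26.7 CPM there, 9.37 to 15.4 in the other sIVs libraries and 5.24 to 9.14 in PBS libraries. The groups did not overlap in this sum, by a narrow margin, and 2.01% of all genes tested had groups without overlap. Of the 5 markers 3 were highest in sIVs replicate 4. Skeletal muscle markers (6 of 6) summed to 11.8 CPM in sIVs replicate 4 against 6.74 to 8.84, but only 1 of the 6 was highest there. Rod markers (5 of 5), which define the labelled tissue, summed to 26934 to 52366 CPM, and lens markers (6 of 6) to at most 0.917 CPM. Of the retinal markers, cones (4 of 4) summed to 889 CPM in sIVs replicate 4 against 538 to 747 elsewhere, with 3 of the 4 highest there. Ganglion cells (5 of 5) summed to 743 there against 549.6 to 597, with 3 of the 5 highest there. Bipolar cells (4 of 4) summed to 1053 there against 1302 to 1564, although 1 of the 4 was highest there. Amacrine cells (3 of 3) summed to 491 against 593 to 658, with 0 highest there. The part of these in the results below was not tested, and the values of the gene comparisons without sIVs replicate 4 are given with them.

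Between sIVs and PBS retinas no mitochondrial transcript passed the test. Of the 37 genes 25 passed the filter on low counts and were tested, all 13 protein genes, both rRNAs and 10 tRNAs. In the quasi-likelihood test of edgeR, 0 of the 25 reached an adjusted p below 0.05, nor did any of the 17004 genes tested (0%), and adjusted p ran from 0.81 to 0.982 over the 25. At an unadjusted p under 0.05 there was 1 of the 25, mt-Tw, against 1.5% of all genes, and groups without overlap were found for 0 of the 25, against 2.01%. DESeq2 also called 0, with 3 of the 25 at an unadjusted p under 0.05 against 1.89% of all genes. The log2 fold change of sIVs against PBS was above 0 for 16 of 25, against 51.3% of all genes, with a median of 0.16 against 0.01 over all genes. Without sIVs replicate 4 the medians were 0.002 and 0.0009, and 14 of 25 were above 0.

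**Figure D3:**
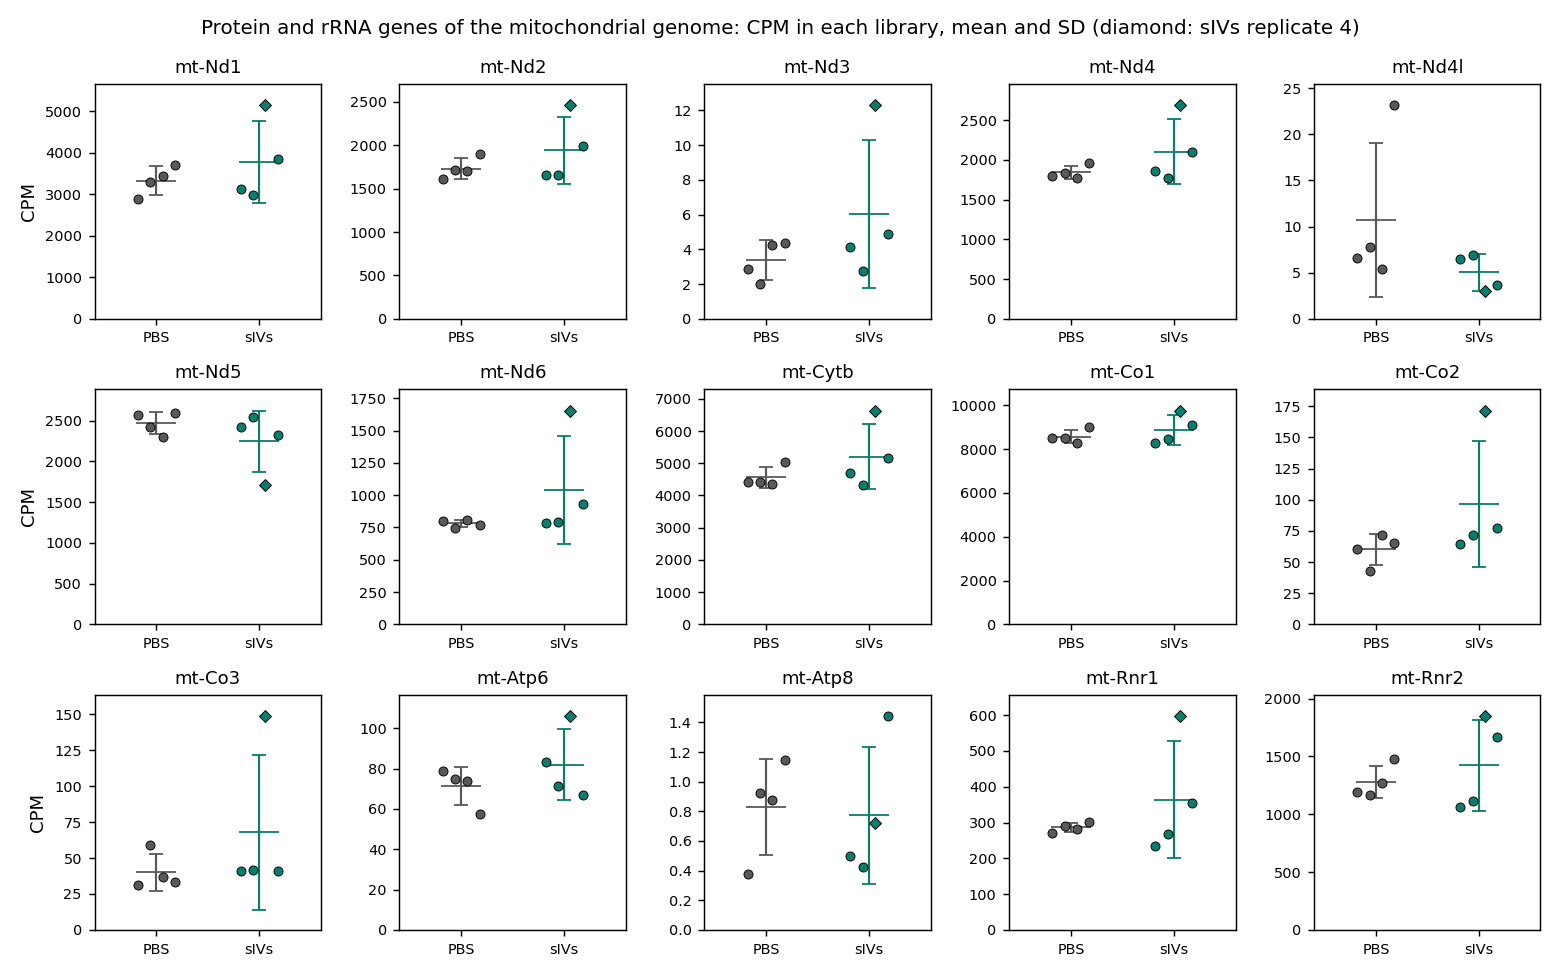
CPM of the 13 protein and 2 rRNA genes in each library, with mean and SD of the 4 PBS and the 4 sIVs libraries; the diamond is sIVs replicate 4. The groups overlap in every panel, and the diamond is the highest point for 12 of 15 genes.

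Complex I, the entry point of electrons from NADH, has 7 mitochondrial subunits. mt-Nd1 stood at 2891, 3296, 3432 and 3721 CPM in PBS replicates 1, 3, 4 and 5 and at 3125, 2982, 5156 and 3858 CPM in the same order of sIVs replicates. Only sIVs replicates 4 and 5 lay above the highest PBS library, and the log2 fold change was 0.18 ± 0.20 (SE) with all libraries and -0.01 without sIVs replicate 4. mt-Nd2 (1612 to 1900.0 CPM in PBS, 1655 to 2462 in sIVs) and mt-Nd4 (1773 to 1959 and 1776 to 2689) had log2 fold changes of 0.16 ± 0.16 and 0.19 ± 0.16, and 0.03 and 0.05 without that library.

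The 2 neighbours of opposite strands, mt-Nd5 and mt-Nd6, went apart in sIVs replicate 4. mt-Nd6 stood at 801, 746, 809 and 772 CPM in PBS libraries and at 782, 792, 1655 and 929.6 CPM in the sIVs libraries. mt-Nd5 stood at 2563, 2418, 2297 and 2595 CPM in PBS libraries and at 2419, 2549, 1704 and 2321 CPM in the sIVs libraries. Replicate 4 of the sIVs group was thus the highest of 8 libraries for mt-Nd6 and the lowest for mt-Nd5. The log2 fold changes were 0.41 ± 0.24 (mt-Nd6) and -0.13 ± 0.16 (mt-Nd5), and without it 0.09 and -0.02.

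The complex I genes inside the copied stretch had low counts. mt-Nd3 stood at 2.87, 2.03, 4.23 and 4.39 CPM in PBS libraries and 4.16, 2.77, 12.3 and 4.88 CPM in the sIVs libraries (log2 fold change 0.84 ± 0.47, and 0.22 without sIVs replicate 4). mt-Nd4l stood at 6.58, 7.81, 5.44 and 23.2 CPM in PBS libraries and 6.45, 6.96, 3.01 and 3.71 CPM in the sIVs libraries, a log2 fold change of -1.10 ± 0.49, and -0.92 without sIVs replicate 4. Here PBS replicate 5 was the library apart, and without it the value was -0.40. With the counts of the copies added, an alternative chosen after the data were seen, the log2 fold changes were 0.27 for mt-Nd3 and -0.44 for mt-Nd4l.

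mt-Cytb, the cytochrome b of complex III, stood at 4406, 4427, 4369 and 5034 CPM in PBS libraries and at 4685, 4324, 6638 and 5167 CPM in the sIVs libraries (log2 fold change 0.19 ± 0.17, and 0.05 without sIVs replicate 4). The most abundant transcript, mt-Co1, varied least of the 15 protein and rRNA genes over the 8 libraries (coefficient of variation 5.9%), at 8506, 8495, 8296 and 8992 CPM in PBS libraries and 8263, 8441, 9764 and 9086 CPM in the sIVs libraries, with a log2 fold change of 0.05 ± 0.15, and 0.002 without sIVs replicate 4. The other complex IV genes had 1 library far above the rest. mt-Co2 stood at 42.7 to 71.3 CPM in PBS libraries and at 64.8, 71.9, 172 and 77.1 CPM in the sIVs libraries (0.68 ± 0.31, and 0.25 without sIVs replicate 4). mt-Co3 stood at 31.4 to 59.02 CPM in PBS libraries and at 40.7, 41.4, 149 and 40.8 CPM in the sIVs libraries (0.76 ± 0.45, and 0.02 without it). Their copies moved in the same library: Gm28661 stood at 161 and Gm28437 at 102 CPM in sIVs replicate 4, with maxima of 62.2 and 46.1 CPM among the other sIVs libraries.

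Of the ATP synthase genes, mt-Atp6 stood at 57.4 to 78.6 CPM in PBS libraries and at 83.5, 71.4, 106 and 66.8 CPM in the sIVs libraries (0.20 ± 0.16, and 0.05 without sIVs replicate 4). mt-Atp8 had 98 counts over all libraries, a mean of 0.830 ± 0.323 CPM in PBS libraries and 0.773 ± 0.464 CPM in the sIVs libraries (SD, n = 4 each), and a log2 fold change of -0.11 ± 0.48 (-0.08 without sIVs replicate 4), so that a difference of this size was not detectable. Both rRNA genes were highest in the same library. mt-Rnr1 stood at 271, 291, 283 and 301 CPM in PBS libraries and at 235, 268, 598 and 355 CPM in the sIVs libraries (0.35 ± 0.26, and -0.004 without sIVs replicate 4). mt-Rnr2 stood at 1195, 1169, 1270.4 and 1474 CPM in PBS libraries and at 1062, 1111, 1849 and 1666 CPM in the sIVs libraries (0.16 ± 0.20, and 0.001 without it).

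Of the 10 tested tRNAs 5 were highest in sIVs replicate 4 and 2, mt-Tl1 and mt-Te, were lowest there. mt-Tw, the tryptophan tRNA after mt-Nd2, stood at 0.756, 1.16, 1.28 and 1.87 CPM in PBS libraries and 1.29, 2.91, 2.88 and 2.06 CPM in the sIVs libraries (log2 fold change 0.84 ± 0.36, unadjusted p = 0.0442 and adjusted p = 0.81 in edgeR). It did not pass, its groups overlapped, and the log2 fold change was 0.71 without sIVs replicate 4. mt-Tp stood at 17.9, 17.9, 17.9 and 14.6 CPM in PBS libraries and 15.3, 10.9, 18.1 and 14.2 CPM in the sIVs libraries (-0.22 ± 0.17, and -0.34 without sIVs replicate 4). mt-Tl1 stood at 8.55 to 9.15 CPM and 7.07 to 9.53 CPM (-0.06 ± 0.16), and its direction turned without that library, to 0.02. The other 7 had log2 fold changes from -0.22 for mt-Tc to 0.47 for mt-Th, with -0.10 for mt-Ts2, -0.07 for mt-Te, -0.03 for mt-Ty, 0.12 for mt-Tl2 and 0.37 for mt-Tn. Their SE were 0.24 to 0.39. Without sIVs replicate 4 the direction turned for mt-Tn (-0.10), mt-Tl2 (-0.14) and mt-Te (0.09), and the other values were -0.40 for mt-Tc, 0.29 for mt-Th, -0.26 for mt-Ts2 and -0.003 for mt-Ty.

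**Figure D4:**
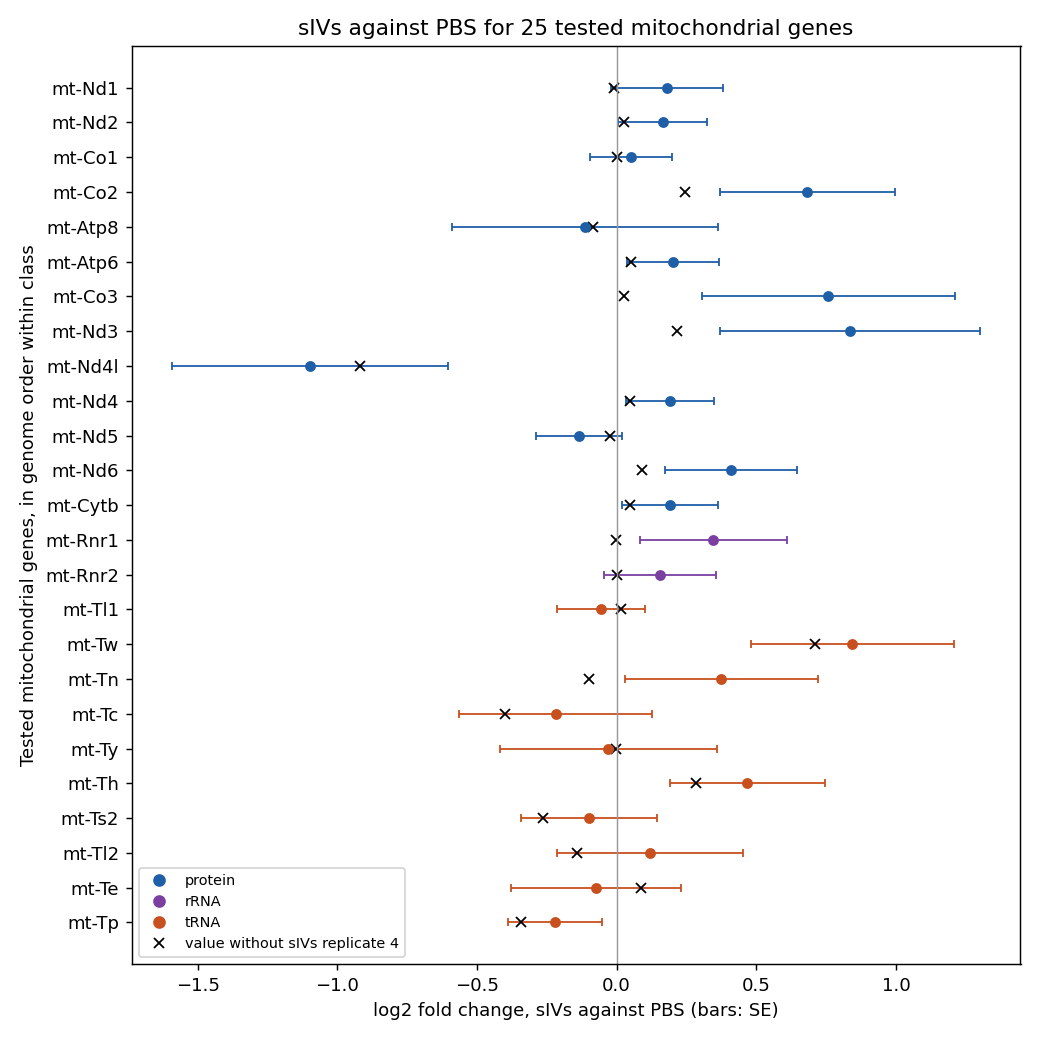
Log2 fold change of sIVs against PBS (edgeR) with its SE for the 25 tested mitochondrial genes, coloured by class; crosses give the value without sIVs replicate 4. Values run from -1.10 (mt-Nd4l) to 0.84 (mt-Tw), none passed the test, and the crosses of most protein and rRNA genes lie near 0.

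By strand, the 19 tested genes of the plus strand had a median log2 fold change of 0.18, with 14 above 0, and the 6 of the minus strand one of -0.05, with 2 above 0. Without sIVs replicate 4 the medians were 0.02 and -0.05. The minus-strand genes took 0.0819% ± 0.00219 of the counts in PBS and 0.105% ± 0.0386 in sIVs retinas (SD, n = 4 each). sIVs replicate 4 had 0.161% and the other 7 libraries 0.0775% to 0.0991%, and mt-Nd6 made up 109233 of their 112802 counts.

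Ratios between 2 genes of 1 library need no library scaling, and 5 were compared with two-sided exact permutation tests over 70 arrangements, whose smallest possible p is 0.0286. The ratio of mt-Nd6 to mt-Nd5 counts sets genes annotated on opposite strands against each other, and compares the strands themselves only if counting used strand. It was 0.313, 0.309, 0.352 and 0.298 in PBS replicates 1, 3, 4 and 5, and 0.323, 0.311, 0.972 and 0.400 in the sIVs replicates. On the log2 scale the group means were -1.66 ± 0.105 and -1.17 ± 0.768 (SD, n = 4 each; difference 0.49, exact permutation p = 0.2, adjusted over the 5 ratios 0.829), and the difference was 0.11 without sIVs replicate 4.

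The 2 rRNAs lie in line on the same precursor. Counts were not divided by gene length in any of the 5 ratios, and mt-Rnr2 (1582 bases) is longer than mt-Rnr1 (955 bases). Counts of mt-Rnr2 were 4.02 to 4.89 times those of mt-Rnr1 in 7 libraries and 3.09 times in sIVs replicate 4. The log2 difference between the groups was -0.13 (exact permutation p = 0.514, n = 4 each), and 0.0006 without that library. mt-Nd1 follows the rRNAs on that precursor, and the ratio of mt-Rnr2 to mt-Nd1 differed by -0.03 (exact permutation p = 0.8, n = 4 each). mt-Cytb, at the far end of the plus-strand precursor, against mt-Nd1, near its start, differed by 0.02 (exact permutation p = 0.829, n = 4 each), and was 1.27 to 1.52 in all 8 libraries. mt-Co1 against mt-Nd1, complex IV against complex I, differed by -0.10 (exact permutation p = 0.514, n = 4 each). Each adjusted p was 0.829, and all 5 ratios overlapped between the groups. Without sIVs replicate 4 these last 3 differences were -0.01, 0.06 and 0.01, the last with its direction turned.

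The values of sIVs replicate 4 were also set against gene length. For nuclear protein-coding genes, the CPM of that library divided by the median of the other 7 had a median of 2.15 below 600 bases, 2.17 from 600 to 1000, 1.97 to 1500, 1.69 to 2000, 1.40 to 3000 and 0.888 for longer genes. The mitochondrial genes, all under 2000 bases, had 0.704 for mt-Nd5, 1.15 for mt-Co1, 1.44 for mt-Atp6, 1.45 for mt-Nd2, 1.46 for mt-Nd4, 1.5 for mt-Cytb, 1.55 for mt-Rnr2, 1.56 for mt-Nd1, 2.09 for mt-Nd6, 2.11 for mt-Rnr1, 2.62 for mt-Co2, 2.96 for mt-Nd3 and 3.66 for mt-Co3, while mt-Nd4l (0.458) and mt-Atp8 (0.825), the shortest, were below 1. The longest, mt-Nd5, was thus low in a library where nuclear genes of its length were high. Of the 15 protein and rRNA genes 12 were highest in this library, and 2 were lowest, mt-Nd4l and mt-Nd5. Of all genes tested, which include many longer ones, 35.7% were highest there. The same 12 were above the median of the other 7 libraries. So were 85.5% to 90.8% of nuclear protein-coding genes in the classes below 2000 bases, and 37.9% of those from 3000 bases. The coefficient of variation over the 8 libraries had a median of 21.1% over the 15 genes, and 11.7% without this library.

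**Figure D5:**
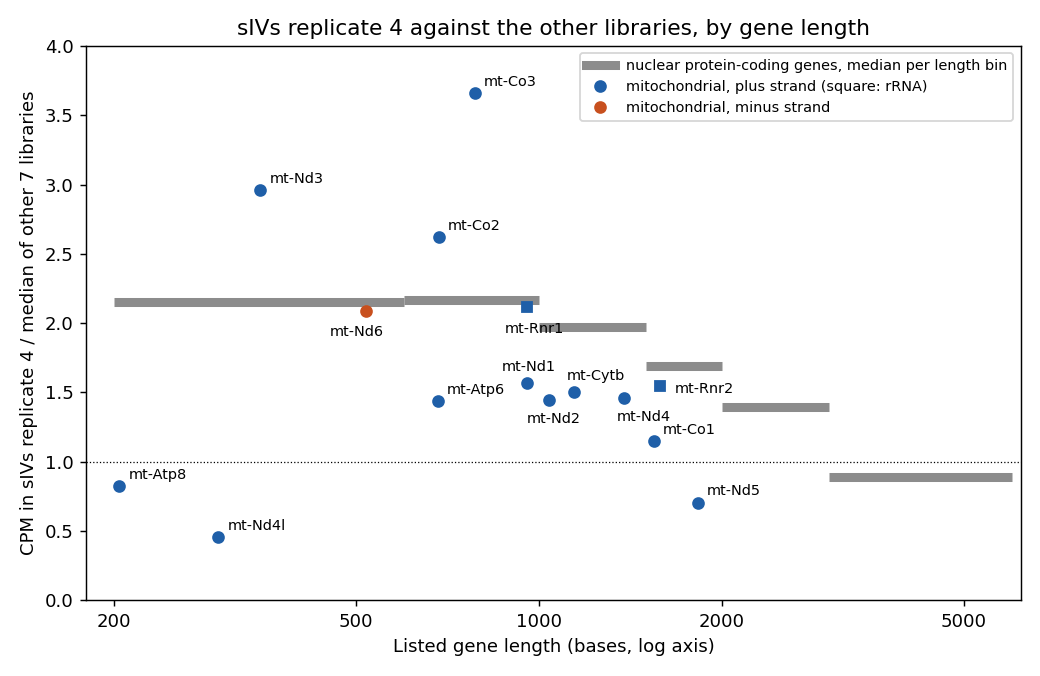
CPM in sIVs replicate 4 divided by the median of the other 7 libraries, against listed gene length (log axis), for the 15 mitochondrial protein and rRNA genes (points) and as medians of nuclear protein-coding genes in 6 length classes (grey bars, the first and the last drawn only as far as the axis). Grey bars fall from 2.15 to 0.888 with length, and mt-Atp8 at 0.825, mt-Nd5 at 0.704 and mt-Nd4l at 0.458 lie below all of them. Only mt-Co2, mt-Nd3 and mt-Co3 lie above the bar of their own length.

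Nuclear genes that transcribe, process, translate or complete the products of the mitochondrial genome were read from the same test, and 0 passed in each list. Of 20 genes for transcription and replication of the genome, 13 had a log2 fold change above 0, with a median of 0.06 (-0.04 without sIVs replicate 4). Tfam, which packages the genome and starts its transcription, stood at 25.9 ± 1.43 CPM in PBS libraries and 30.5 ± 6.04 CPM in the sIVs libraries (SD, n = 4 each; log2 fold change 0.24 ± 0.15, and 0.09 without that library), and Primpol, a primase and polymerase, at 7.22 ± 0.717 and 5.95 ± 0.681 CPM (-0.28 ± 0.17, and -0.21 without it). Of 39 tested genes for RNA processing and stability 24 were above 0, with a median of 0.04 (-0.0002 without that library). Trnt1, which adds the CCA end to tRNAs, stood at 45.2 ± 2.23 and 51.1 ± 5.16 CPM (0.18 ± 0.10, and 0.10 without it), and Rpusd3, a pseudouridine synthase family member, had 0.58 ± 0.30, and 0.22 without it.

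The 77 tested genes for proteins of the mitochondrial ribosome, which translates the 13 mRNAs, had a median of 0.31 with 74 above 0, and 0.06 without sIVs replicate 4. Mrpl34 stood at 20.2, 21.9, 23.4 and 22.9 CPM in PBS libraries and 23.3, 22.7, 67.2 and 29.8 CPM in the sIVs libraries (0.69 ± 0.33, and 0.19 without it), and Mrps24 had 0.63 ± 0.31, and 0.16 without it. The 73 nuclear subunits of complexes I, III, IV and V, which assemble with the mitochondrial subunits, had a median of 0.44 with 71 above 0, and 0.06 with 57 above 0 without it. Their 2 genes of smallest p were Ndufc1 (0.70 ± 0.31) and Ndufa11 (0.68 ± 0.32), both of complex I, and without it they had 0.23 and 0.19. The 13 mitochondrial subunits of the same complexes had a median of 0.19 with 10 above 0, and 0.03 with 9 above 0 without it. The 7 copies on chromosome 1 had a median of 0.23 with 6 above 0, and 0.01 without it. All nuclear genes named here had an adjusted p of 0.81 in edgeR.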

How the data were processed

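Counts per gene were deposited by the authors as whole numbers with gene position, strand, length and biotype, and FPKM values were deposited by the authors relative to gene length and library total. Reads were placed on mm10, per the submitters' processing notes. Which aligner, counter and strand setting were used, and how reads that fit several places were treated, is not given in the sources used here. Genes kept by filterByExpr (17004) were TMM-scaled and tested in edgeR 4.0.16 (R 4.3.3), quasi-likelihood F test, two-sided, group as the only term, Benjamini-Hochberg adjustment over all genes at 0.05. SE was taken as the size of the log2 fold change over the root of F. Alternatives used DESeq2 1.42.0, limma 3.58.1, other scalings, no filter, a block for replicate number and leaving out each library, and the test was checked on simulated data. Ratios of 2 counts, each with 0.5 added, were compared by exact permutation (scipy 1.17.1). Sequences came from GENCODE M21 transcripts, matched for 37 of 37 genes.

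Named were all mitochondrial protein and rRNA genes, tRNAs at a mean of at least 1 CPM, the highest and lowest tRNA of each strand, the 2 genes of smallest p of each nuclear list, the 7 copies and carry-over markers at over 3 times the next library. The members and lists were chosen with earlier results of these data known. Depth was 13803958 to 16622259 counts per library. Of the lists, Prorp and Atp5md had no row in the table under these symbols.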

Additional observations from a re-analysis of the deposited data

Results flagged for a closer look

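In all, 84 sets of 4 values were checked by group, among them tested mitochondrial genes, copies and class shares. Of the 84, 16 held a library far from the other 3 by Dixon's criterion, which chance gives in about 1 of 20. In 8 of these the library was sIVs replicate 4. There mt-Co2 stood at 172 CPM against 64.8 to 77.1 in the other sIVs libraries, mt-Co3 at 149 against 40.7 to 41.4, mt-Nd6 at 1655 against 782 to 929.6, mt-Tn at 9.56 against 3.44 to 4.06 and mt-Ts2 at 2.95 against 1.93 to 2.06. Of the copies, Gm28661 stood at 161 CPM against 47.9 to 62.2, Gm28437 at 102 against 41.1 to 46.1 and Gm28438 at 62.2 against 29.3 to 32.2.

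PBS replicate 5 stood apart for 6 genes. It had mt-Nd4l at 23.2 CPM against 5.44 to 7.81 in the other PBS libraries, mt-Cytb at 5034 against 4369 to 4427, mt-Tc at 4.33 against 3.10 to 3.18, mt-Tl2 at 5.36 against 3.02 to 3.30 and Gm29216 at 41.2 against 23.0 to 25.4. Its mt-Tp was low, at 14.6 against 17.9 in each of the others. Gm28439 stood at 12.7 CPM in PBS replicate 3 against 19.7 to 20.96, and the share of tRNA counts was 0.0049% in PBS replicate 1 against 0.00504% to 0.00506%.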

How the results depend on the processing

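In every setting run, 0 mitochondrial genes and 0 of all genes passed, and no scaling (DESeq2 size factors, library totals, factors from nuclear genes) turned the direction of a mitochondrial gene or moved the median of all genes by 0.1. Genes with an unadjusted p under 0.05 numbered 255 in edgeR, 803 without the filter, 322 in DESeq2, 455 in limma-voom with quality weights and 136 to 958 with 1 library left out. With limma-voom, log2 fold changes turned to -0.069 for mt-Nd1, -0.0026 for mt-Nd2, -0.014 for mt-Co3, 0.0045 for mt-Nd5, -0.048 for mt-Rnr1, -0.066 for mt-Rnr2, -0.27 for mt-Tl2 and 0.23 for mt-Te. mt-Ty turned to 0.072 on log2(FPKM + 1), 0.084 on log2(FPKM + 0.1) and 0.037 with the replicate block. The quality weights of limma-voom took the median of the nuclear respiratory chain from 0.44 to 0.015 and that of the mitochondrial genes from 0.16 to -0.0026. The cause was not tested.

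With 1 library left out in turn, ranges crossed 0 for the log2 ratios of mt-Rnr2 to mt-Nd1 (-0.10 to 0.013), mt-Cytb to mt-Nd1 (-0.014 to 0.073), mt-Rnr2 to mt-Rnr1 (-0.20 to 0.00057) and mt-Co1 to mt-Nd1 (-0.18 to 0.013). They also did for mt-Atp8 (-0.60 to 0.085), mt-Nd1 (-0.0080 to 0.28), mt-Rnr1 (-0.0036 to 0.50), mt-Tc (-0.45 to 0.00088), mt-Te (-0.27 to 0.087), mt-Tl1 (-0.12 to 0.017), mt-Tl2 (-0.14 to 0.35), mt-Tn (-0.099 to 0.53) and mt-Ty (-0.28 to 0.20).

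Replicate numbers are shared by the groups, and the labels do not say whether they pair the libraries. Deviations of same-numbered libraries correlated at 0.596, 0.025, 0.227 and 0.514 for numbers 1, 3, 4 and 5. Numbers 1, 4 and 5 correlated best with their own number, and number 3 with number 5. The replicate block called 0 genes (588 unadjusted, lowest adjusted p 0.655 in edgeR), and with it the mt-Nd6 to mt-Nd5 ratio had an exact permutation p of 0.125, the smallest that 16 sign arrangements allow. Low counts kept 12 tRNAs out of the test, among them the 5 inner ones (2 to 4 counts each) and mt-Tf, and mt-Atp8 was tested on 98 counts. What limits these counts was not tested.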
